A study of Mus musculus with 15 samples.

Results

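The 10 genes Nrep, Irx3os, Nnat, Plcd4, Tmem233, Tmem25, Trim7, Tcim, Sema6c and Fer1l6 of mouse muscle were followed out of 55416 genes in the deposited tables. They were chosen by their measured levels, as genes expressed in muscle of tumour-free mice and of tumour-bearing mice given anti-CD8a, with a large fall in tumour-bearing mice given IgG, so the values of those 3 groups are given here as a description without a test. All 10 passed the filter on low counts. Of these, 9 held to that description. Nnat did not, since it was hardly detected in tumour-free muscle.

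RNA of the tibialis anterior (the shin muscle) was sequenced in male mice of the strain C57BL/6 (C57BL/6NCrlOri), 6 to 8 weeks old when tumour cells were given. Tumour-bearing mice had received cells of the line KrasIKKaL into the airway, followed by anti-PD-L1 at 200 µg per kg (n = 3), anti-CD8a at 200 µg (n = 3) or an isotype IgG of unstated dose (n = 4), and control mice had no tumour (n = 5). The antibodies against PD-L1, a checkpoint ligand that restrains T cells, and against CD8a, a coreceptor of cytotoxic T cells, were given 3 times a week into the abdomen. No antibody is named for control mice, so tumour and antibody cannot be told apart in any comparison with control, and the treatment label of the isotype group reads anti-IgG.

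The 10 genes do not form 1 pathway. Several encode membrane proteins. Phospholipase C enzymes split a membrane lipid into messengers that release calcium, semaphorins are guidance ligands read by plexin receptors, and ferlins are calcium-sensing proteins of membrane fusion and repair. Calcium release and uptake drive contraction in muscle fibres, and glycogen is the fibre's store of glucose.

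Library totals were 15894822 to 22459370 expected counts, and 18571 to 19970 genes had a count above 0. The 12 muscle fibre markers, among them Acta1, Ckm and Myh4, summed to 72489 to 110620 CPM (read counts relative to library size, TMM-normalised) in anti-PD-L1, 105481 to 120138 in anti-CD8a, 82011 to 129693 in IgG and 101101 to 141890 in control, and none was at 0 in a whole group. Markers of some other cells differed between groups. Fibroblast markers (8 genes) summed to 1969 to 3038 CPM in anti-PD-L1, 1361 to 1457 in anti-CD8a, 928 to 1283 in IgG and 1436 to 2085 in control. Satellite cell markers (5 genes) summed to 11.9 to 15.2 CPM in anti-PD-L1, 17.2 to 19.9 in anti-CD8a, 3.04 to 10.8 in IgG and 14.2 to 19.5 in control, so each of these lists lay higher in every anti-PD-L1 library than in any IgG library. Smooth muscle markers (4 genes) summed to 243 to 381 CPM in anti-PD-L1, 410 to 622 in anti-CD8a, 232 to 439 in IgG and 483 to 631 in control. Tenocyte markers (6 genes) summed to 72.0 to 123 CPM in anti-PD-L1, 66.3 to 127 in anti-CD8a, 66.7 to 113 in IgG and 132 to 285.8 in control. Macrophage markers (6 genes) summed to 56.4 to 140 CPM in anti-PD-L1, 27.3 to 54.9 in anti-CD8a, 26.6 to 57.2 in IgG and 34.1 to 59.5 in control. Endothelial, adipocyte, Schwann cell and red blood cell markers had sums whose ranges overlapped between all groups. Red blood cell markers (4 genes) reached 1845 CPM in IgG, against at most 734 in anti-PD-L1, 509 in anti-CD8a and 385 in control. No gene of these lists was at 0 in a whole group. The part of these cells in the results below was not tested, and in whole muscle fewer cells of a type and less RNA per cell cannot be told apart.

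Promoter sequences from RefSeq (GRCm38.p6) were searched for 7 of the members. Tcim and Fer1l6 had no entry, and Nrep was left out of the search, so the motif counts do not cover them. Of the 7 sequences, 4 are shown because they held the matches of the muscle and stress motifs searched. Each sequence is the 250 bases before the first listed start of the gene. The window of Tmem233 is chr5:116083268-116083517 (minus strand), that of Plcd4 chr1:74542639-74542888 (plus strand), that of Tmem25 chr9:44799248-44799497 (minus strand) and that of Nnat chr2:157559828-157560077 (plus strand). Capitals mark a motif match on either strand.
Tmem233: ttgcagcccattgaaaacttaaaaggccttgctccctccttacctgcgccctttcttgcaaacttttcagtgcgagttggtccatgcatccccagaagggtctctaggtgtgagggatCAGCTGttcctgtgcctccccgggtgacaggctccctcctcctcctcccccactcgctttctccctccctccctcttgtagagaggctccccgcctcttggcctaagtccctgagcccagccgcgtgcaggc
Plcd4: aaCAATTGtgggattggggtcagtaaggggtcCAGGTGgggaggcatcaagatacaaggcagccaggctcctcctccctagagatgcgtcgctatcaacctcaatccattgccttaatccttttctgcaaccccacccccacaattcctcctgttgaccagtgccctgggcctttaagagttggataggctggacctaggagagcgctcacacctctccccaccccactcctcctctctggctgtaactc
Tmem25: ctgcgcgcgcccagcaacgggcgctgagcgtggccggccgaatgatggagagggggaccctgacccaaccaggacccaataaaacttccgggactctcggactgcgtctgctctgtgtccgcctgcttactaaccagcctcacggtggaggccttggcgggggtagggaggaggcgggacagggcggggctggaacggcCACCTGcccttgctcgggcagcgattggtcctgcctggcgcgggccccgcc
Nnat: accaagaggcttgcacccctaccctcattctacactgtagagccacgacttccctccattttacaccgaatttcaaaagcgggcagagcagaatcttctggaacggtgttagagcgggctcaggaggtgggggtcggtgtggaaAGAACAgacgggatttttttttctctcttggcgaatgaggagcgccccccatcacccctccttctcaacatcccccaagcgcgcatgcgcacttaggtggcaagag

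The E-box (CANNTG), bound by myogenic factors of the MyoD family, matched in 3 of the 7 promoters (Tmem233 at -132, Tmem25 at -51, and Plcd4 at -248 and -218 from the start), and in 66.0% of 27025 promoters of the same length. The half-site of the glucocorticoid receptor (AGAACA) matched in 1 of 7, in Nnat at -106, and in 16.2% of all. The MEF2 box, the CArG box of serum response factor, the MEF3 motif (TCAGGTT) and a FoxO motif (TGTTTAC) matched in 0 of 7, against 3.01%, 1.40%, 3.49% and 3.09% of all promoters. No matches overlapped. These matches describe the letters only.

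In length-corrected units (TPM, the authors' length-scaled transcript level), Tmem233 and Nrep were the most abundant of the 10 in control muscle, at 81.2 ± 14.9 and 79.8 ± 1.29 TPM (SD, n = 5), which do not differ beyond their spread. Plcd4 followed at 29.9 ± 8.02 TPM, Sema6c at 22.8 ± 4.18, Tcim at 13.9 ± 2.61 and Trim7 at 10.2 ± 1.80 TPM. The ranges of Plcd4 and Sema6c overlapped, as did those of Tcim and Trim7, while Sema6c lay above Tcim in every library. Tmem25, Fer1l6, Irx3os and Nnat lay at 2.35 ± 0.0918, 1.71 ± 0.676, 1.14 ± 0.286 and 0.272 ± 0.267 TPM, with overlap between Tmem25 and Fer1l6 and between Fer1l6 and Irx3os.

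**Figure D1:**
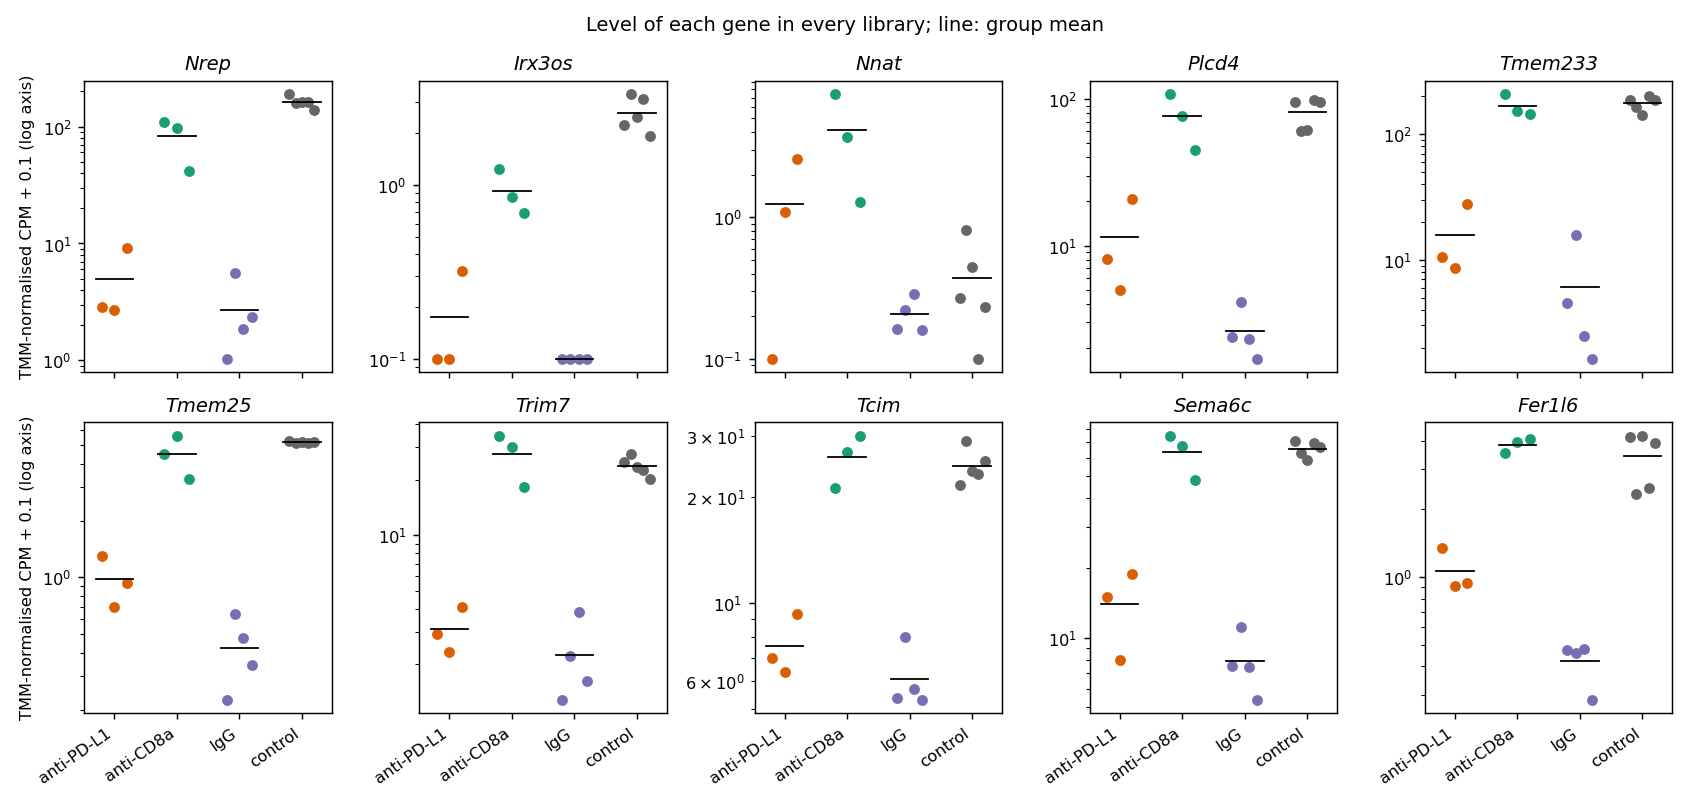
TMM-normalised CPM plus 0.1 on a log axis for each of the 10 genes, with 1 point per library, a line at the group mean and the groups anti-PD-L1, anti-CD8a, IgG and control from left to right. In 9 panels the IgG points lie below all control points, and in the panel of Nnat the anti-CD8a points, at 1.19 to 7.30 CPM, lie above all control points.

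The membrane and calcium genes are described first. Tmem233 encodes a small membrane protein of the dispanin family, known in sensory neurons as a partner of sodium channels. It stood at 10.5, 8.57 and 27.5 CPM in anti-PD-L1, at 208, 152 and 144 CPM in anti-CD8a, at 4.41, 15.7, 2.39 and 1.53 CPM in IgG, and at 189, 164, 143, 201 and 185 CPM in control. The anti-CD8a and control ranges overlapped, and every IgG and anti-PD-L1 library lay far below both. The fitted log2 fold change was -4.88 ± 0.57 (SE) for IgG against control and -0.07 ± 0.50 for anti-CD8a against control. IgG replicate 2 was the highest of its group, and without it IgG against control was -5.99.

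Plcd4 encodes phospholipase C delta 4, known for the acrosome reaction of sperm. It stood at 8.06, 4.89 and 20.8 CPM in anti-PD-L1, at 107, 76.4 and 44.8 CPM in anti-CD8a, at 2.30, 4.03, 2.21 and 1.59 CPM in IgG, and at 94.4, 60.7, 61.1, 98.0 and 95.6 CPM in control. All 3 anti-PD-L1 libraries lay above all 4 IgG libraries and below all others. In log2, IgG against control was -5.01 ± 0.44 (SE) and anti-CD8a against control was -0.10 ± 0.38.

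Fer1l6 encodes a ferlin whose loss disturbs muscle development in zebrafish. It stood at 1.24, 0.814 and 0.836 CPM in anti-PD-L1, at 3.43, 3.87 and 4.01 CPM in anti-CD8a, at 0.372, 0.361, 0.378 and 0.183 CPM in IgG, and at 4.09, 2.24, 4.14, 2.38 and 3.83 CPM in control. The IgG values rest on 3 to 6 counts per library. The anti-CD8a libraries lay within the control range.

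Nnat encodes neuronatin, a small protein of the endoplasmic reticulum from an imprinted gene, known to act on calcium stores. It stood at 0, 0.986 and 2.46 CPM in anti-PD-L1, at 7.30, 3.60 and 1.19 CPM in anti-CD8a, at 0.0621, 0.120, 0.189 and 0.0611 CPM in IgG, and at 0.168, 0.707, 0.345, 0 and 0.134 CPM in control. IgG libraries held 1 to 3 counts and control libraries 0 to 12, and these ranges overlapped. In summed counts IgG was 2.50-fold lower than control (95% counting interval 1.04 to 6.87), while anti-CD8a was 15.1-fold higher than control (9.92 to 24.1). These intervals leave out the spread between libraries. The fitted log2 fold change, which takes it in, was -1.23 ± 1.24 (SE) for IgG against control. For anti-CD8a against control it was 3.90 ± 0.85. The anti-CD8a libraries held 134, 67 and 24 counts, a spread of 6.14-fold in CPM. So the data go against the description of Nnat as a gene lost in IgG: its raised level in anti-CD8a sets it apart from the other 9.

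The next 3 genes concern signals between cells or to the nucleus. Sema6c encodes a membrane-bound semaphorin. It stood at 14.9, 7.93 and 18.6 CPM in anti-PD-L1, at 74.8, 67.5 and 48.0 CPM in anti-CD8a, at 7.45, 11.02, 7.37 and 5.25 CPM in IgG, and at 70.8, 62.7, 58.4, 69.6 and 67.0 CPM in control. The lowest anti-PD-L1 library lay inside the IgG range. The log2 fold change of IgG against control was -3.08 ± 0.25 (SE).

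Nrep encodes P311, a small protein that raises the translation of TGF-beta in mouse fibroblasts. It stood at 2.76, 2.61 and 9.10 CPM in anti-PD-L1, at 109, 97.8 and 41.7 CPM in anti-CD8a, at 0.931, 5.48, 1.76 and 2.26 CPM in IgG, and at 189, 160, 162, 163 and 139 CPM in control. All 3 anti-CD8a libraries lay below all 5 control libraries, at a log2 fold change of -0.97 ± 0.43 (SE), and IgG against control was -5.95 ± 0.52, or -6.61 without IgG replicate 2.

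Tcim encodes TC1, a positive regulator of Wnt signalling that binds the beta-catenin inhibitor Chibby, known from human cells. It stood at 6.86, 6.26 and 9.24 CPM in anti-PD-L1, at 21.2, 26.8 and 29.9 CPM in anti-CD8a, at 5.28, 7.89, 5.61 and 5.19 CPM in IgG, and at 21.6, 28.9, 23.7, 23.2 and 25.3 CPM in control. Its fall in IgG, -2.03 ± 0.17 (SE) in log2, was the smallest among the 9 that fell.

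Trim7 encodes a ubiquitin ligase that binds glycogenin, the primer of glycogen synthesis. It stood at 2.81, 2.23 and 4.002 CPM in anti-PD-L1, at 34.5, 30.0 and 18.1 CPM in anti-CD8a, at 1.18, 2.11, 3.72 and 1.53 CPM in IgG, and at 24.8, 27.4, 23.4, 22.3 and 20.02 CPM in control. The anti-CD8a libraries spanned the control range on both sides, and the IgG and anti-PD-L1 ranges overlapped.

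Tmem25 encodes a membrane protein of the immunoglobulin superfamily, known in neurons for the turnover of a glutamate receptor subunit. It stood at 1.19, 0.600 and 0.836 CPM in anti-PD-L1, at 4.41, 5.53 and 3.22 CPM in anti-CD8a, at 0.124, 0.542, 0.378 and 0.244 CPM in IgG, and at 5.16, 5.07, 5.12, 5.03 and 5.13 CPM in control. In CPM the 5 control libraries lay close together, though on 86 to 115 counts each, where counting error alone could spread them further. The IgG values rest on 2 to 9 counts.

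Irx3os is a long noncoding RNA transcribed from the strand opposite to Irx3, a homeobox factor. It stood at 0, 0 and 0.220 CPM in anti-PD-L1, at 1.14, 0.752 and 0.594 CPM in anti-CD8a, at 0 CPM in all 4 IgG libraries, and at 2.13, 3.24, 2.36, 3.03 and 1.83 CPM in control. A count of 0 allows up to 0.134 to 0.189 CPM in a library. Irx3os had 0 counts in IgG against 231 in control. It was 56.1-fold lower in IgG when 3 counts over the whole group were taken as the floor. The 95% counting interval allowed a fall as small as 45.3-fold. In anti-CD8a it held 47 counts, 3.04-fold fewer than control at equal depth (95% counting interval 2.22 to 4.26), and the ranges of these groups did not overlap. With Nrep and Nnat it made 3 of the 10 members whose anti-CD8a and control libraries did not overlap, against 9.56% of all genes in either direction.

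Over the 10 members, 9 had IgG and control ranges that did not overlap, all lower in IgG, against 23.4% of all genes in that direction. All 10 had anti-CD8a ranges above IgG, where 23.1% of all genes did. These counts follow from how the members were chosen. Ranked by log2 fold change of IgG against control among 12337 genes with a control mean of at least 1 CPM, Nrep was at place 5, Plcd4 at 15, Tmem233 at 17, Tmem25 at 50, Trim7 at 78, Fer1l6 at 85, Sema6c at 116 and Tcim at 428. Irx3os had the largest fitted fall, but with 0 counts in IgG that value depends on the prior count, so its place is not established. Nnat, at 0.271 CPM in control, was below that level. The genes beside Tcim in this order were Siae and Comp, both at -2.03. Among non-members, genes with a Gm or Rik symbol or with no symbol were left out, though some ranked higher. The 5 others of largest fitted fall were Fam19a4, Apln, Kcng4 (-5.92), Lrrc38 (-5.47) and Pde4a (-5.25). Fam19a4 and Apln had 0 and 2 counts over the IgG libraries.

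Anti-PD-L1 was the 1 group that did not enter the choice of members, and its libraries were tested against each other group. The libraries on the other side of each test did enter the choice, so the tests are not independent of it in full. Choosing genes high in control and anti-CD8a favours lower values in anti-PD-L1 against those groups. Choosing genes low in IgG favours higher values in anti-PD-L1 against IgG. The shares over all genes given below carry no such choice, so they are not a matched measure. Irx3os passed the filter on low counts only through control and anti-CD8a. Against control, 9 of the 10 members were lower in anti-PD-L1 in edgeR's quasi-likelihood test, all but Nnat, where 13.9% of 14372 genes tested were lower, and for the same 9 the ranges did not overlap, against 16.8% of all genes lower in that way. The median log2 fold change of the members was -2.70, against 0.05 over all genes. Nrep was lower by a log2 change of -5.07 ± 0.55 (SE, adjusted p = 3.09e-05), Tmem233 by -3.51 ± 0.59 (adjusted p = 0.000523) and Tcim by -1.72 ± 0.18 (adjusted p = 3.02e-05). Irx3os had 5 counts in anti-PD-L1, all in replicate 3, and was 30.0-fold lower than control at equal depth (95% counting interval 12.7 to 93.1). That interval leaves out the spread between libraries. Without anti-PD-L1 replicate 3, Nrep was at -5.91, Plcd4 at -3.66 and Tmem233 at -4.21 in log2, all further from control. Nnat was at 2.11 ± 0.90 (SE, adjusted p = 0.0790) and passed without control replicate 2 (adjusted p = 0.0440), without anti-PD-L1 replicate 1 (0.0142) or without the filter on low counts (0.0220).

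Against anti-CD8a, in a comparison that shares the anti-PD-L1 libraries, the same 9 members were lower in anti-PD-L1, where 7.64% of all genes were lower and 16.6% had ranges that did not overlap in that direction, as these 9 did. The log2 fold changes of the 9 ran from -4.09 ± 0.54 (SE) for Nrep (-4.94 without anti-PD-L1 replicate 3) to -1.80 ± 0.20 for Tcim, with adjusted p values in edgeR of 0.00947 for Irx3os and 0.00227 or less for the others. Nnat stood at -1.79 ± 0.86 (adjusted p = 0.151), and passed without anti-PD-L1 replicate 3 (adjusted p = 0.0470). The median over the members was -2.54, against 0.05 over all genes.

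Against IgG, 3 of the 10 members were higher in anti-PD-L1, where 3.96% of all genes were higher and 5.5% changed in either direction. In log2, Plcd4 was higher by 2.15 ± 0.44 (SE, edgeR adjusted p = 0.0159), Fer1l6 by 1.55 ± 0.35 (adjusted p = 0.0238) and Tmem25 by 1.41 ± 0.37 (adjusted p = 0.0408). The ranges of the 2 groups did not overlap for these 3 genes, against 7.41% of all genes in that direction. The other 7 had values above 0 and did not pass, with Sema6c at 0.83 ± 0.26 (adjusted p = 0.0675), Tmem233 at 1.37 ± 0.55 (adjusted p = 0.129), Nrep at 0.88 ± 0.51 (adjusted p = 0.270), Tcim at 0.31 ± 0.19 (adjusted p = 0.289) and Trim7 at 0.50 ± 0.33 (adjusted p = 0.332). Irx3os had 5 counts, all in anti-PD-L1 replicate 3, against 0 in IgG (adjusted p = 0.165), so no fold is given. Nnat, with 79 counts against 7, stood at 12.7-fold in summed counts (95% counting interval 5.87 to 32.6). That interval leaves out the spread between libraries. The fitted log2 fold change of Nnat, which takes it in, was 3.35 ± 1.12 (SE, edgeR adjusted p = 0.0809).

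This last count depended on single libraries. Without IgG replicate 2 Tmem233 was at 2.48 and Nrep at 1.54, and without anti-PD-L1 replicate 3 Plcd4 was at 1.35, Tmem233 at 0.67 and Nrep at 0.04 in log2. When anti-PD-L1 replicate 3 was left out, or IgG replicate 1, or IgG replicate 4, 0 members passed. Over all genes those settings called 158, 162 and 210, in that order. Further, 1 member passed without anti-PD-L1 replicate 1 (147 over all genes) and 4 without anti-PD-L1 replicate 2 (2712 over all genes). Without IgG replicate 3, 2 passed (313 over all genes), and without IgG replicate 2, 6 passed (2604 over all genes). In a fit of the 2 groups alone, 0 passed (37 over all genes). With all libraries 791 genes were called, so the calls over all genes moved too.

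**Figure D2:**
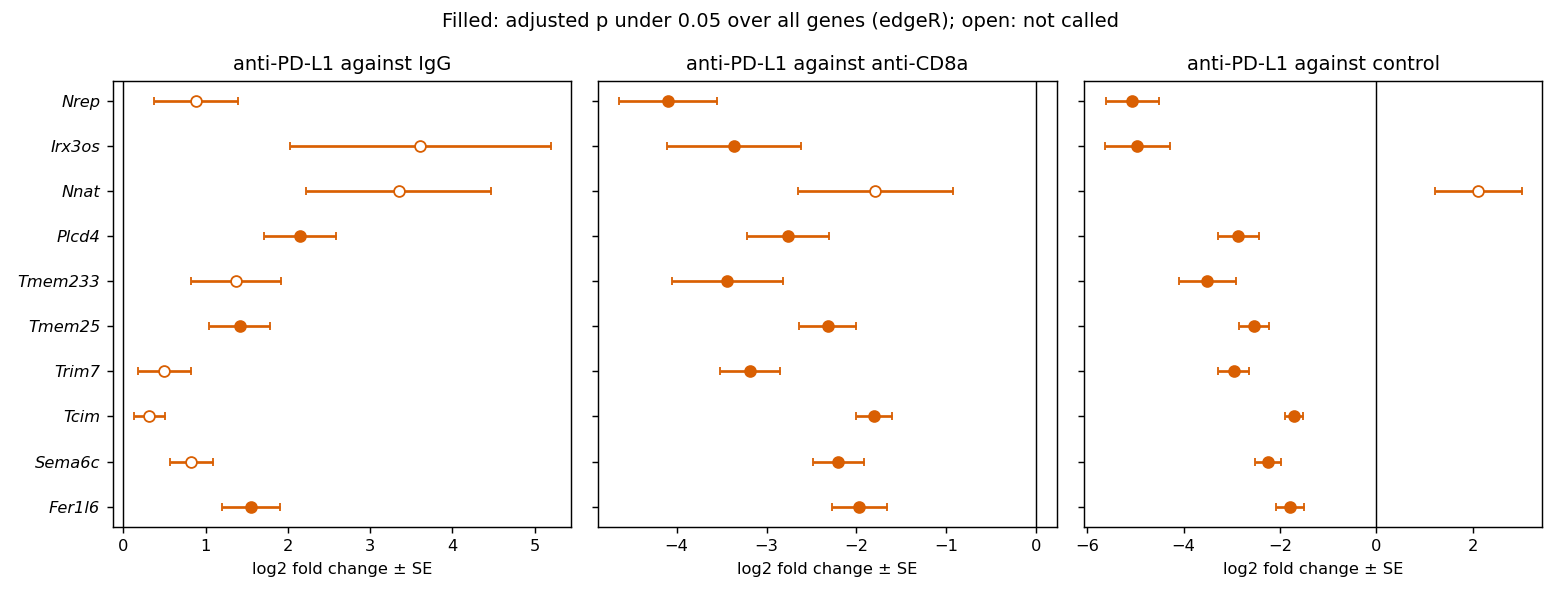
Log2 fold change of the 10 genes with its standard error in anti-PD-L1 against IgG, anti-CD8a and control, 1 panel per comparison; filled points passed an adjusted p of 0.05 over all genes. Against anti-CD8a and control, 9 points are filled and lie left of 0, and against IgG 3 points are filled and all 10 lie right of 0.

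Set on a scale from the IgG mean to the control mean of log2 CPM, the 8 members other than Nnat and Irx3os lay at 14.4% to 44.3% of the way in anti-PD-L1 and at 82.4% to 107% in anti-CD8a. Irx3os was left out because its IgG mean, at 0 counts, is set by the prior count. Fer1l6 (44.3%) and Plcd4 (38.5%) lay highest in anti-PD-L1, and Nrep (14.4%) and Tcim (15.4%) lowest. Nrep (82.4%) was also lowest in anti-CD8a. The scale shares the IgG and control libraries between both groups, so these positions are a description. They are means, and anti-PD-L1 libraries differed among themselves: replicate 3 was the highest for 8 of 10 members, while replicate 2 was the lowest for 8 of the 9 that had 1 lowest library. In anti-CD8a, replicate 3 was the lowest for 8 of 10, and in IgG replicate 2 was the highest for 6 of the 9 members detected there. Plcd4 spread 4.26-fold and Nrep 3.48-fold within anti-PD-L1.

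**Figure D3:**
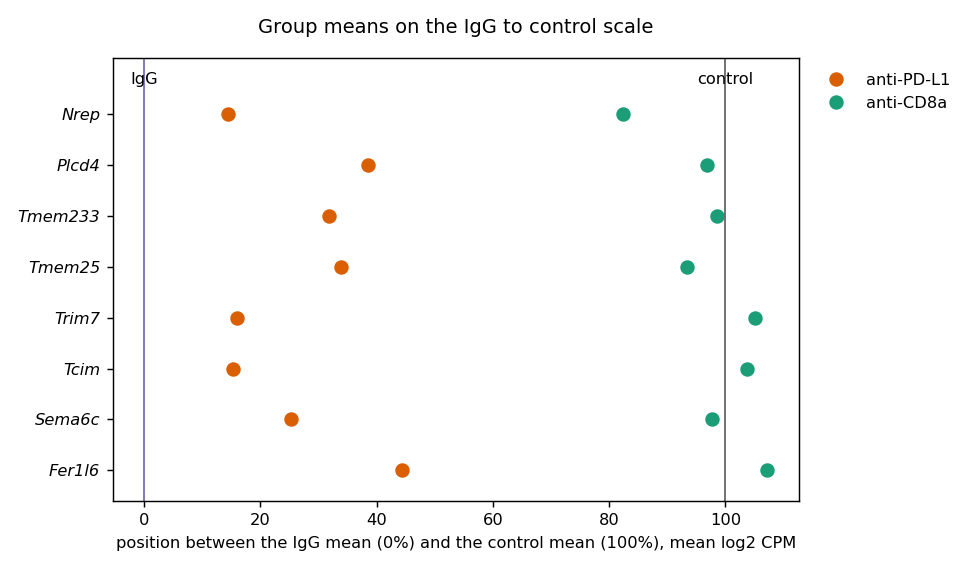
Mean log2 CPM of anti-PD-L1 and anti-CD8a for 8 genes on a scale where the IgG mean is 0% and the control mean is 100%; points are group means without error. The anti-PD-L1 points lie at 14.4% to 44.3% and the anti-CD8a points at 82.4% to 107%.

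Across the 15 libraries, log2 CPM of the 9 members other than Nnat correlated pairwise at Pearson's r of 0.855 (Fer1l6 with Irx3os) to 0.989 (Sema6c with Plcd4), with a median of 0.956 over 36 pairs. Nnat correlated with them at 0.215 to 0.415. The points fall into groups that chose the members, and share library and depth, so these values describe the pattern only. By the same measure over 15 libraries, the genes most like Tmem233 were Sypl2 (0.995), Aktip (0.994) and Mmp15 (0.991), those most like Nrep were Igfbp5 (0.990), Amd1 (0.989) and Emid1 (0.984), and those most like Plcd4 were Itm2a (0.986), Rasgrp3 (0.985) and Smco1 (0.985). Sema6c was nearest to Rasgrp3 (0.990), Relt and Smtn, Tmem25 to Pde4a (0.989), Mterf2 and Trmt2b, Irx3os to Pitpna (0.978), Rmi2 and Gid4, and Trim7 to Carnmt1 (0.977), Atxn1 and Dhcr7. Tcim was nearest to Igfbp5 (0.974), Hps5 and Ifit3b, and Fer1l6 to Tnfaip2 (0.966), Smco1 and Pdss2. No gene lay as near to Nnat, whose closest were Zfp968 (0.772), C2cd4c (0.763) and Ptprd (0.760).

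In GENCODE M21 (GRCm38), 6 members overlap a gene on the other strand. Irx3os overlaps Irx3, and Nnat overlaps Blcap, a gene of apoptosis regulation that hosts it. Irx3 stood at 3.68 ± 0.875 CPM in IgG (SD, n = 4) and 3.57 ± 0.636 CPM in control (SD, n = 5), and differed by 0.04 ± 0.22 in log2 (SE, edgeR adjusted p = 0.872), while Irx3os was at 0 in IgG. Blcap stood at 26.6 ± 2.36 CPM in anti-CD8a (SD, n = 3) and 21.96 ± 0.991 CPM in control, at 0.28 ± 0.15 (SE, adjusted p = 0.710), beside the raised Nnat. The library kit keeps strand, but the labels do not say whether strand was used in counting, so reads of these pairs may be shared. Blcap and Irx3 passed in none of the 6 comparisons.

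**Figure D4:**
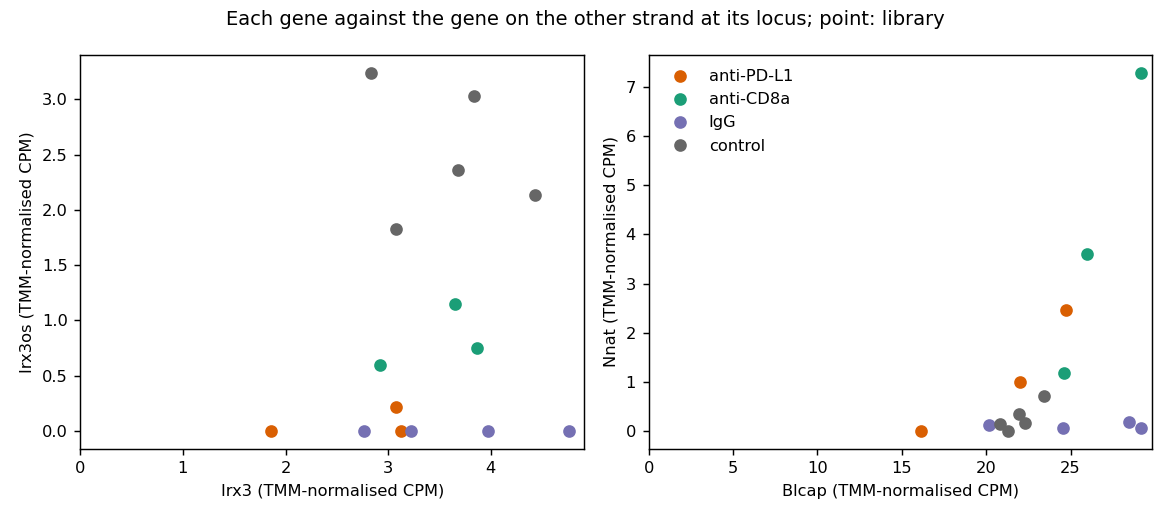
TMM-normalised CPM of Irx3os against Irx3 (left) and of Nnat against Blcap (right), 1 point per library, coloured by group. The 4 IgG libraries lie at 0 for Irx3os while their Irx3 values of 2.77 to 4.76 CPM span those of control, 2.83 to 4.43 CPM.

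Other genes of the members' families and known partners, 98 in 10 lists, were counted beside them. In IgG against control 46 of 71 tested passed, 23 higher and 23 lower, or 64.8%, against 58.5% of all genes. In anti-CD8a against IgG 30 passed, 18 higher and 12 lower, or 42.3%, against 48.0% of all genes. In anti-PD-L1 against IgG 3 passed, all higher, or 4.23%, a share near the 5.5% of all genes. The median log2 fold changes of the 71 in the 3 comparisons were -0.06, 0.09 and 0.02, beside -0.02, 0.02 and 0.01 over all genes. No gene of these lists passed in anti-CD8a against control, where edgeR called 2 genes in all (0.0139%), and 5 of the 71 had an unadjusted p under 0.05.

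The relatives of the members changed in both directions in IgG against control, as did all genes (30.2% called higher and 28.4% lower). The lists are small, and their counts for that comparison, here and below, are to be read beside those shares. Of 10 other phospholipase C genes tested, 2 rose and 3 fell in IgG against control, with Plce1 at -1.13 ± 0.25 (SE, adjusted p = 0.00104 in edgeR) and Plcl1 at -1.09 ± 0.22 (adjusted p = 0.000607). Of 8 dispanin and sodium channel genes, 2 rose and 2 fell, among them Scn4b, a sodium channel beta subunit, at 104 ± 34.2 CPM in IgG (SD, n = 4) against 348 ± 18.5 CPM in control (SD, n = 5). Scn4b rose in anti-CD8a against IgG, to 378 ± 20.1 CPM (SD, n = 3).

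Of 8 semaphorin and plexin genes, 5 fell and 2 rose in IgG, with the receptor Plxna1 at -1.16 ± 0.22 (SE, adjusted p = 0.000382 in edgeR) and the ligand Sema6d at -1.04 ± 0.29 (adjusted p = 0.00599). Of 7 ferlin and membrane repair genes 4 fell and 2 rose, led by the annexins Anxa2 at -1.55 ± 0.24 (adjusted p = 5.31e-05) and Anxa5 at -1.52 ± 0.25 (adjusted p = 0.000108). Anxa1 and Anxa2 were among the 3 related genes that rose in anti-PD-L1 against IgG, with Anxa1 at 35.9 ± 13.8 CPM (SD, n = 3) against 14.9 ± 1.53 CPM (SD, n = 4). The third was Ltbp1, which holds latent TGF-beta in the matrix.

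Among genes of Wnt signalling 6 of 10 rose and 2 fell in IgG. Cby1, which encodes the Chibby protein that TC1 binds, fell to 2.69 ± 1.14 CPM in IgG, against 9.24 ± 1.55 CPM in control, and was higher than IgG in anti-CD8a, at 7.57 ± 1.26 CPM. Gsk3b, a kinase that marks beta-catenin for breakdown, rose to 230 ± 61.7 CPM in IgG, against 70.4 ± 13.3 CPM in control. Of 10 glycogen and muscle TRIM genes 3 rose and 2 fell, with the ubiquitin ligase Trim63 at 3.20 ± 0.45 (SE, adjusted p = 2.51e-05 in edgeR) and the glycogen branching enzyme gene Gbe1 at 0.96 ± 0.24 (adjusted p = 0.00266). Of 6 genes at the Nnat locus or of calcium pump regulation, 2 rose and 1 fell. The gene of the calcium pump regulator sarcolipin, Sln, rose by 3.34 ± 0.73 (adjusted p = 0.00108) and that of myoregulin, Mrln, fell by 1.32 ± 0.36 (adjusted p = 0.00528) in log2. In the TGF-beta list 2 of 8 rose and 3 fell, with the receptor gene Tgfbr1 at 1.21 ± 0.14 (adjusted p = 5.17e-06) and Ltbp4 at -1.16 ± 0.26 (adjusted p = 0.00141). Of 3 genes tested at the Irx3os locus and its family, Rpgrip1l fell and Fto rose, at -2.20 ± 0.39 (adjusted p = 0.000210) and 1.17 ± 0.13 (adjusted p = 2.87e-06). No glutamate receptor subunit of the list passed the filter on low counts. Its 1 other gene, Grina, which encodes a protein associated with such receptors, rose at 0.74 ± 0.12 (adjusted p = 8.81e-05).

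RSEM gives for each gene a mean transcript length weighted by the isoforms it estimates, a readout that did not enter the choice of members and is described without a test. Tmem233, with 2 annotated transcripts in the tables, had a mean length of 1779, 2392 and 2477 bases in anti-PD-L1, 2338, 2414 and 2371 bases in anti-CD8a, 1514, 2396, 2477 and 1435 bases in IgG, and 2196, 2167, 2169, 2213 and 2136 bases in control. All 3 anti-CD8a libraries lay above all 5 control libraries. It was the 1 member of 9 with a varying length whose ranges did not overlap between these groups, and was singled out for that after its values were seen. Of 11710 tested genes with a varying length, 5.67% had ranges that did not overlap. For Tmem233 the IgG values rest on 25 to 260 counts. The mean length of Nrep was 2039 to 2077 bases in anti-CD8a and 2016 to 2044 bases in control, and that of Sema6c was 2997 to 3338 bases in anti-CD8a and 2627 to 3037 bases in control, with overlap in both genes.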

How the data were processed

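RNA of 15 libraries of tibialis anterior was analysed from 1 table per library. The MGIEasy RNA Directional kit was used, per the labels. The submitters' processing notes name Trim Galore, STAR 2.7.9a and RSEM 1.3.3. The build and annotation are not given in the sources used here. The deposited expected counts are estimates per gene, of which 19.8% to 22.8% of non-zero values in a library were not whole, and were rounded. The deposited TPM values were made by the authors with RSEM and served for levels between genes. The deposited mean transcript length, in bases, is a further RSEM estimate. Of 55416 IDs, 52083 matched a symbol. Strit1 and Gyg1 of the related lists matched none.

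An edgeR model (version 4.0.16, R 4.3.3) held all 4 groups, with TMM scaling, filterByExpr and the quasi-likelihood test on 11 residual degrees of freedom. P-values were adjusted by Benjamini-Hochberg over 14372 genes, and a gene was called at an adjusted p under 0.05. Standard errors were taken as |log2 fold change| over the root of F. Log2 CPM used a prior count of 2. Counting intervals and floors of 3 counts cover counting error only. The fit was tested on simulated data. The members, lists and comparisons were chosen with earlier results of these data known. All 10 members were counted in each comparison, though not every fitted change is given. For each member, the 3 genes of highest correlation, other than members and Gm or Rik symbols, were named. From each related list the 2 called genes of largest change were eligible, or the gene of smallest p. Of these, 1 gene that this rule names is not reported here. The motifs searched, Irx3 and values of Blcap outside its named comparison were chosen after values were seen. Whether every library is a separate mouse is not stated, so p-values measure the spread between these libraries. No 2 libraries of a group agreed within sampling noise (chi-square per degree of freedom of at least 17.6). No pairing of libraries by replicate number was seen, though so few libraries per group cannot exclude one. Alternatives were upper-quartile scaling, DESeq2 1.42.0, no filter, limma 3.58.1 on log2(TPM + 0.1), 2-group fits, a replicate block and leaving out each library.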

Additional observations from a re-analysis of the deposited data

Results flagged for a closer look

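Of 19 groups of 4 or 5 libraries examined among the members, 2 held a library that stood apart, where chance gives about 1 in 20. Tcim stood at 7.89 CPM in IgG replicate 2, against 5.19 to 5.61 CPM in the other IgG libraries. Fer1l6 stood at 0.183 CPM in IgG replicate 4, against 0.361 to 0.378 CPM in the others, a difference of 3 counts against 6.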

How the results depend on the processing

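The 9 members lower in anti-PD-L1 than in control or anti-CD8a passed under every alternative run, with 9 or 10 members called. For anti-PD-L1 against IgG, 3 members were called, 6 without the filter, 0 in the 2-group fit and 0 with the replicate block, 0 to 6 with 1 library left out, and 7 without replicate 2 of both groups, a setting chosen after seeing the data. Over all genes that comparison called 791, and 1807 with DESeq2, 37 in the 2-group fit, 69 with the replicate block, 147 to 2712 with 1 library left out and 4215 without both replicates 2. Related genes called there numbered 3, and 9 with DESeq2, 5 without the filter, 0 in the 2-group fit, 0 with the block, 1 with limma, 1 to 14 with 1 library left out and 20 without both replicates 2. Anti-PD-L1 against anti-CD8a called 2836 genes, and 1712 in the 2-group fit, 1722 with the block, 1758 without both replicates 2 and 1226 to 3011 with 1 library left out, with 5 to 17 related genes beside 18. Anti-PD-L1 against control called 4988 genes and 28 related ones, and 3013 to 4931 and 16 to 29 with 1 library left out, the lowest of both without anti-PD-L1 replicate 2. Anti-CD8a against control called 2 genes, and 7 with upper-quartile scaling, 68 with DESeq2, 65 without the filter, 56 in the 2-group fit, 0 with the block, 0 with limma, 12 without both replicates 2 and 0 to 2 with 1 library left out; 1 related gene passed without the filter and 1 in the 2-group fit. The cause of these moves was not tested. No member reversed direction where it was called. Upper-quartile scaling moved the median of all genes in IgG against control to -0.271, beside -0.0237 with TMM. Same-numbered libraries of different groups correlated at -0.345 to 0.18 in their deviations, over 0.1 in 3 of 19 pairs. No pairing by number was seen, but so few libraries per group cannot exclude one. Counts of 0 to 9 per library limit Irx3os, Nnat, Tmem25 and Fer1l6 in IgG.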
